A study of Mus musculus with 2 samples.

Results

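Guanylate-binding proteins (GBPs) are large GTPases of the dynamin superfamily, and the data described here are the read counts of 8 mouse Gbp genes in 2 stable lines of the mouse hepatocellular carcinoma cell line Hepa1-6. The 8 genes, Gbp2 to Gbp9, were taken by name from a table of 52636 genes, and they lie in 2 clusters of 4 genes each, on chromosome 3 and chromosome 5. They were chosen by family name with their counts in these 2 libraries already known, so the ratios of the members below are a description and are not tested. The IRF8 line was infected for 24 h with a lentivirus for IRF8 overexpression that also carries GFP and puromycin resistance, and the vector line with the control lentivirus carrying GFP and puromycin resistance alone. Both lines were selected with 2 µg/ml puromycin, and the labels give C57bl/6 mice as the strain of both. The labels do not say whether a line is a clone or a pool, and they do not name the promoter that drives IRF8. Each line gave 1 library, so nothing below could be checked against a replicate, and no p-value is given.

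GBPs are among the genes most strongly induced by interferon-gamma, whose receptor acts through the kinases JAK1 and JAK2 and whose early targets include IRF1. The gamma-activated site (GAS) is a promoter element of genes that respond to it, and IRF proteins bind the interferon-stimulated response element (ISRE). IRF8, best known from myeloid and B cells, is an IRF protein that also binds DNA together with ETS factors such as PU.1 at composite ETS-IRF elements. GBP proteins gather on vacuoles and on the surface of intracellular bacteria and parasites, where they help to break membranes and to bring in inflammatory caspases.

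The 2 libraries held 20042660 counted reads for the IRF8 line and 18118017 for the vector line. Levels are given as CPM, which are reads per 1000000 of a library's TMM-scaled total, with exact Poisson 95% intervals, and ratios are those of the IRF8 library over the vector library with exact Clopper-Pearson 95% intervals. Both kinds of interval cover counting error only. The words higher and lower are kept for genes that differed at least 2-fold and whose interval excluded 1. Irf8 itself had 1486 reads in the IRF8 line, against 1010 in the vector line, a ratio of 1.22 (1.13 to 1.32), which is below the 2-fold threshold. Overexpression is therefore known here from the label and was not seen at that threshold in these counts, and the labels do not say whether reads of the lentiviral transcript are counted under this gene. The names IRF8 line and IRF8 library follow the label. Of 7 hepatocyte markers, Krt18, Krt8, Hnf4a, Afp and Alb were counted at 75.1 CPM or more in each library, Afp and Alb being lower in the IRF8 library (ratios of 0.468 and 0.375), while Ttr had 0 and 2 counts and Apoa1 15 and 3 in the IRF8 and vector libraries.

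The promoters of the chromosome 3 genes are shown first because all of them hold the same kind of element. RefSeq windows of 300 bases on GRCm38.p6, from 250 bases before the start site to 50 after it, were at hand for 4 of the 8 members, Gbp2, Gbp3, Gbp5 and Gbp7, and for Gbp2b, a further gene of the cluster. Gbp4, Gbp6, Gbp8 and Gbp9 had no entry. The RefSeq start of Gbp5 lies at 142496934, inside the deposited span, which begins at 142493978. The windows are on the plus strand, at chr3:142496684-142496983 for Gbp5, chr3:142530086-142530385 for Gbp7, chr3:142559794-142560093 for Gbp3, chr3:142594597-142594896 for Gbp2b and chr3:142620413-142620712 for Gbp2. Capitals mark matches to the ISRE-like motif, which is GAAA, any 2 bases and GAAA again and which here reads TTTC, 2 bases and TTTC on the strand shown.
Gbp5: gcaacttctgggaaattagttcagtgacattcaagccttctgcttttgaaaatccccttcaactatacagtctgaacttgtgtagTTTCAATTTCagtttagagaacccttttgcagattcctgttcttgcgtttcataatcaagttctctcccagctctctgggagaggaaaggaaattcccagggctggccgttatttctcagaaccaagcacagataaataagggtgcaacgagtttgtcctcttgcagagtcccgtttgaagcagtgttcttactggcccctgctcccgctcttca
Gbp7: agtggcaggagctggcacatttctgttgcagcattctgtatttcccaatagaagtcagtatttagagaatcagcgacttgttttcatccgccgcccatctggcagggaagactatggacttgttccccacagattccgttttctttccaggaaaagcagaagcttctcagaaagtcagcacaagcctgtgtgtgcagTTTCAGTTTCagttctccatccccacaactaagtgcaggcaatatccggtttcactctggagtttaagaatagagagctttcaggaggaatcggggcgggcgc
Gbp3: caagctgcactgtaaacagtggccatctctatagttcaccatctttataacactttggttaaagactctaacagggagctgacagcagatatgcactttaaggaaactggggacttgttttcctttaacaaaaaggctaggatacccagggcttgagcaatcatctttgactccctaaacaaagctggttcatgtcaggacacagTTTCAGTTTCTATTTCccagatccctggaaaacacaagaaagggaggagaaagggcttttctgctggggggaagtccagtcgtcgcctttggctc
Gbp2b: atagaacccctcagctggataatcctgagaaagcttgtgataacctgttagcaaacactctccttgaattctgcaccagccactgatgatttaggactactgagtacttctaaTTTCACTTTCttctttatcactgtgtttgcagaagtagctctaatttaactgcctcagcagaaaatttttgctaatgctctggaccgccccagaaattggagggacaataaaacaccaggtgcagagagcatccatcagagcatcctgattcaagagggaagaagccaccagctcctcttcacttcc
Gbp2: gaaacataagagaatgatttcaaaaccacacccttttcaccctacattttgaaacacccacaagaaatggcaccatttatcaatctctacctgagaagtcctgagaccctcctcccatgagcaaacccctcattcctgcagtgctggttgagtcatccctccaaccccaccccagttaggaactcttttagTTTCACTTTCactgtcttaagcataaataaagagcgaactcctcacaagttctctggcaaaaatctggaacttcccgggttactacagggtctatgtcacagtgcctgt

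All 4 members with a window held an ISRE-like match. Its first base lay at -59 from the start site in Gbp2, at -53 in Gbp7 and at -165 in Gbp5. In Gbp3 there were 2 overlapping matches, with first bases at -45 and -39, and a second Gbp3 window, which is not shown, had none. Over all of RefSeq, 1131 of 32851 windows (3.44%) held the motif, or 1079 of 27025 genes (3.99%). The GAS motif, TTCNNNGAA, was found in Gbp5 (first bases at -245 and -52) and Gbp7 (-106 and -87), and in 8.30% of all windows. The ETS-IRF motif, GGAA, any 2 bases and GAAA, was found in Gbp5 at -82, apart from its ISRE-like match, and in 2.72% of all windows. Both strands were searched for each motif. Gbp2b also held an ISRE-like match, at -137, and it had 0 counts in both libraries. A match describes these letters only and does not show that a factor was bound.

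**Figure D1:**
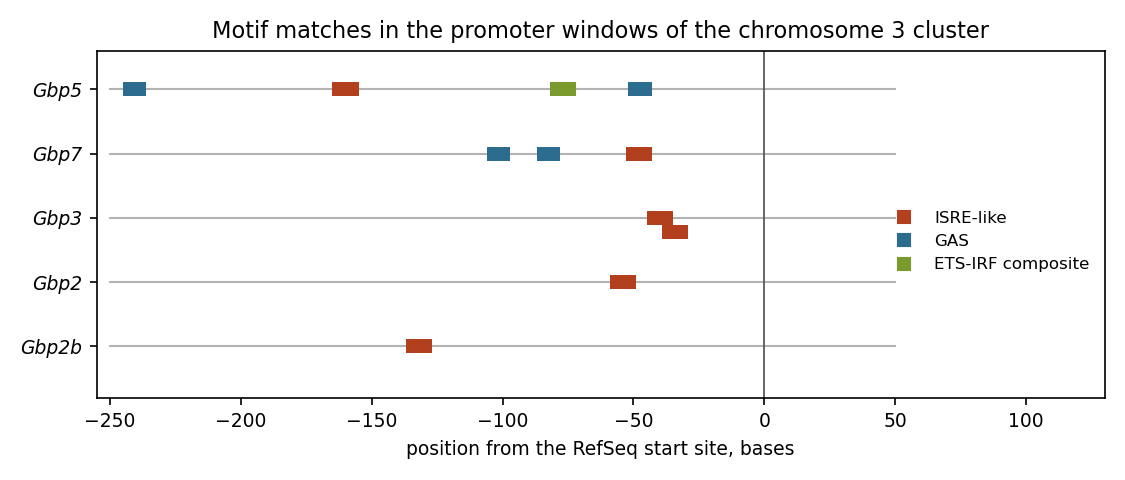
Matches to the ISRE-like, GAS and ETS-IRF motifs along the 300-base windows of 5 Gbp genes of the chromosome 3 cluster, in bases from the RefSeq start site (vertical line). Each gene has at least 1 ISRE-like match, and the ISRE-like matches of Gbp7, Gbp3 and Gbp2 lie within 60 bases before the start site. The lower box for Gbp3 is a second ISRE-like match that overlaps the first.

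On chromosome 3, 3 of the 4 members were called higher in the IRF8 library and Gbp5 was not. The cluster spans 144 kb on the plus strand of mm10 (chr3:142493978-142638008), in the order Gbp5, Gbp7, Gbp3 and Gbp2, with Gbp2b between the last pair. Gbp7, in mice a factor of oxidative and autophagic defence, had 79 reads in the IRF8 line (3.78 CPM, 2.99 to 4.71), against 15 in the vector line (0.864 CPM, 0.483 to 1.42), a ratio of 4.37 (2.50 to 8.18). It had the most reads of the family in the IRF8 library. Gbp3, which gathers on parasite vacuoles in mouse cells, had 52 reads in the IRF8 line (2.49 CPM), against 9 in the vector line (0.518 CPM), a ratio of 4.80 (2.34 to 11.1). Gbp2, a prenylated member that mice need to restrict Toxoplasma, had 41 reads in the IRF8 line (1.96 CPM, 1.41 to 2.66), against 15 in the vector line (0.864 CPM), a ratio of 2.27 (1.23 to 4.41). The level intervals of Gbp2 in the IRF8 and vector libraries met, which those of Gbp7 and Gbp3 did not. Gbp5, which promotes NLRP3 inflammasome assembly, had 9 reads in the IRF8 line (0.430 CPM), against 2 in the vector line (0.115 CPM). Its ratio of 3.74 had an interval of 0.773 to 35.5, so a difference was not detectable at this depth.

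On chromosome 5 there were also 3 members called higher, and Gbp6 was not. This cluster spans 279.5 kb on the minus strand (chr5:105014150-105293698). Gbp4, a GBP reported to restrain IRF7 in mouse cells, had 45 reads in the IRF8 line (2.15 CPM, 1.57 to 2.88), against 4 in the vector line (0.230 CPM, 0.0628 to 0.590), a ratio of 9.34 (3.41 to 35.8). Gbp8 had 49 reads in the IRF8 line (2.34 CPM), against 6 in the vector line (0.345 CPM), a ratio of 6.78 (2.90 to 19.4). Gbp9, which gathers on parasite vacuoles, had 68 reads in the IRF8 line (3.25 CPM), against 9 in the vector line (0.518 CPM), a ratio of 6.27 (3.12 to 14.3). None of these 3 genes had level intervals that met between the libraries. Gbp6 had 6 reads in the IRF8 line (0.287 CPM), against 3 in the vector line (0.173 CPM), and its ratio of 1.66 had an interval of 0.355 to 10.3.

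**Figure D2:**
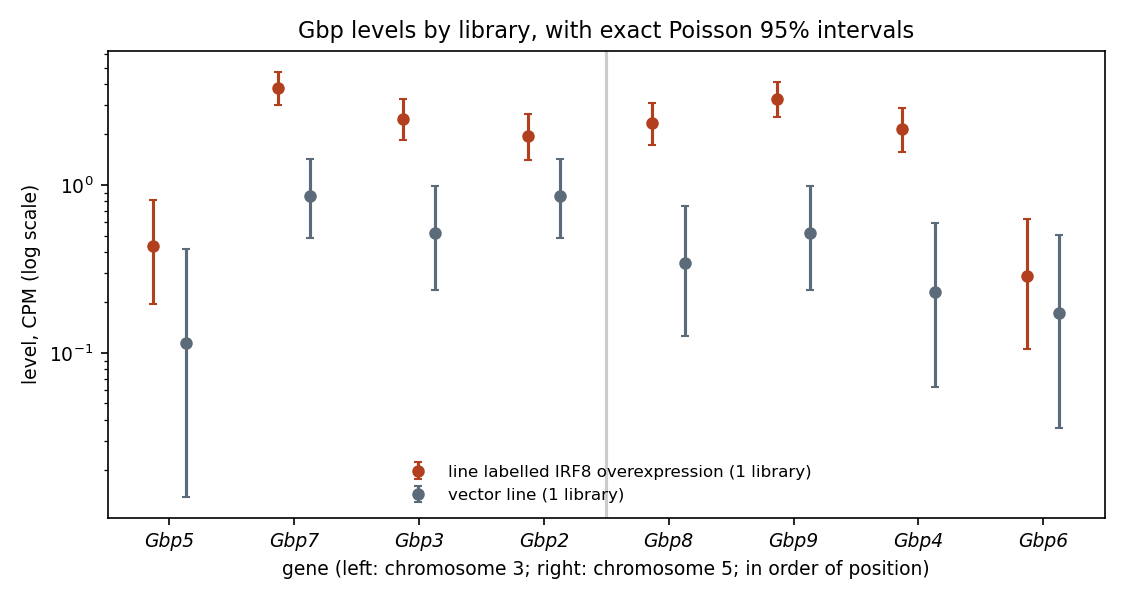
Level of each Gbp member in CPM (log scale) in the line labelled IRF8 overexpression and the vector line, 1 library each, with exact Poisson 95% intervals. The intervals do not meet for Gbp7, Gbp3, Gbp8, Gbp9 and Gbp4, and they overlap for Gbp5, Gbp2 and Gbp6; Gbp6 is at 0.287 CPM in the IRF8 line and 0.173 CPM in the vector line.

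In all, 6 of the 8 members were called higher and 0 lower, and the ratio was above 1 for 8 of 8. Without a filter on low values, 852 of the 22832 genes with any count were called higher (3.73%) and 800 lower (3.50%), a background that is only set beside the members, since they were chosen with these counts known. Among the 12468 genes that averaged 1 CPM or more over the libraries (called measured below), 4.27% were called higher and 3.64% lower. The same 6 members reached that mean, and 0 of the 8 reached 1 CPM in the vector library, so each of the 6 passed that filter through the IRF8 library alone. At a 4-fold threshold 5 of them were called, against 0.553% of measured genes. Among the 5294 genes that, like the members, had 2 to 15 counts in the vector library, 6.04% were called higher and 4.25% lower. The median log2 ratio was 2.20 over the 8 members, against 0.01 over all measured genes and -0.05 over the genes with 2 to 15 vector counts. In bulk RNA, a larger share of cells that transcribe these genes and more RNA per cell cannot be told apart.

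The intervals of the 8 ratios had a range in common, but whether members differ from each other was not tested. The range from 3.41 to 4.41 lay inside the interval of all 8 members, bounded by the lower limit of Gbp4 and the upper limit of Gbp2. With reads summed, the chromosome 5 members had 168 reads in the IRF8 line, against 22 in the vector line, a ratio of 6.34 (4.05 to 10.4). The chromosome 3 members had 181 reads in the IRF8 line, against 41 in the vector line, a ratio of 3.67 (2.60 to 5.28). These intervals overlap. The chromosome 5 genes thus held 48.1% of the family's reads in the IRF8 line, against 34.9% in the vector line. Without Gbp2 the chromosome 3 ratio was 4.47 (2.93 to 7.08), and without Gbp6 the chromosome 5 ratio was 7.08 (4.39 to 12.1). All 8 members together had 349 reads in the IRF8 line (16.7 CPM), against 63 in the vector line (3.63 CPM), a ratio of 4.60 (3.51 to 6.12), which was 4.28 to 5.33 when any 1 member was left out of the sum.

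**Figure D3:**
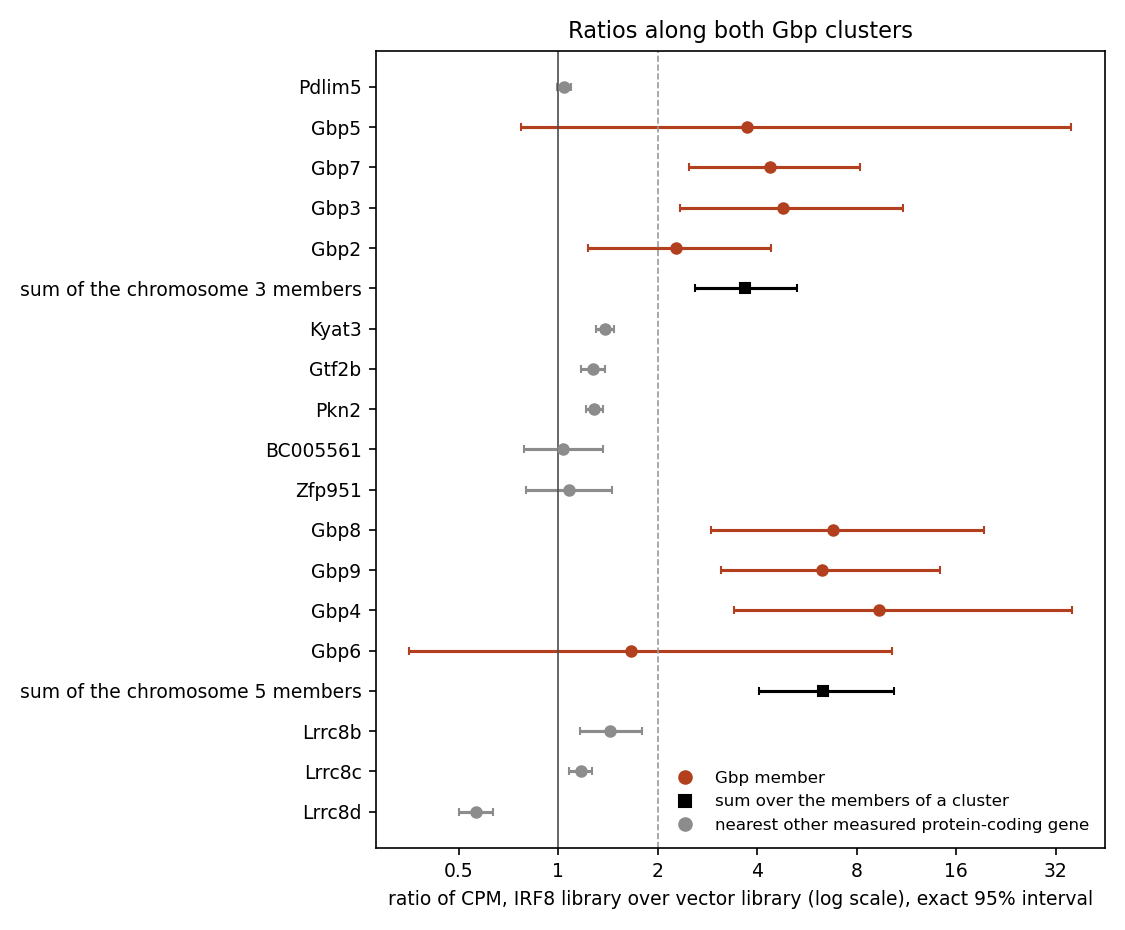
Ratio of CPM in the IRF8 library over the vector library with exact 95% intervals, on a log scale, for the Gbp members (red), the sum over each cluster (black squares) and the nearest other measured protein-coding genes on either side (grey), in order of position. The dashed line is the 2-fold threshold; 6 members and both sums lie to its right with intervals that exclude 1, and none of the grey genes reaches it.

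The genes beside the clusters had ratios under 2, except where reads were few. Of the 3 nearest protein-coding genes on each side of the chromosome 3 cluster, Kyat3, a kynurenine aminotransferase gene, had a ratio of 1.39 (1.31 to 1.47), and Gtf2b and Pkn2 had 1.27 and 1.29. On the other side Pdlim5 had 1.04 (0.995 to 1.09), Bmpr1b had 9 reads in the IRF8 line, against 2 in the vector line, and Unc5c had 0 in both. Beside the chromosome 5 cluster, Lrrc8b, Lrrc8c and Lrrc8d, which encode subunits of volume-regulated anion channels, had ratios of 1.44, 1.17 and 0.566. On its other side BC005561 and Zfp951 had 1.04 and 1.08, and Abcg3 had 0 counts in both. None of these 12 genes was called higher or lower, but Bmpr1b, Unc5c and Abcg3 averaged below 1 CPM and could not be called. Over all measured genes 4.27% were called higher and 3.64% lower. With so few genes, 0 calls is not set apart from these shares. Inside and just beyond the clusters, the further family genes were at or near 0: Gbp10 had 1 count in each library, and Gbp2b, Gbp2-ps and Gbp11 had 0 in both. A count of 0 allows up to 0.143 CPM in the IRF8 library and 0.173 CPM in the vector library, the level of 3 counts.

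**Figure D4:**
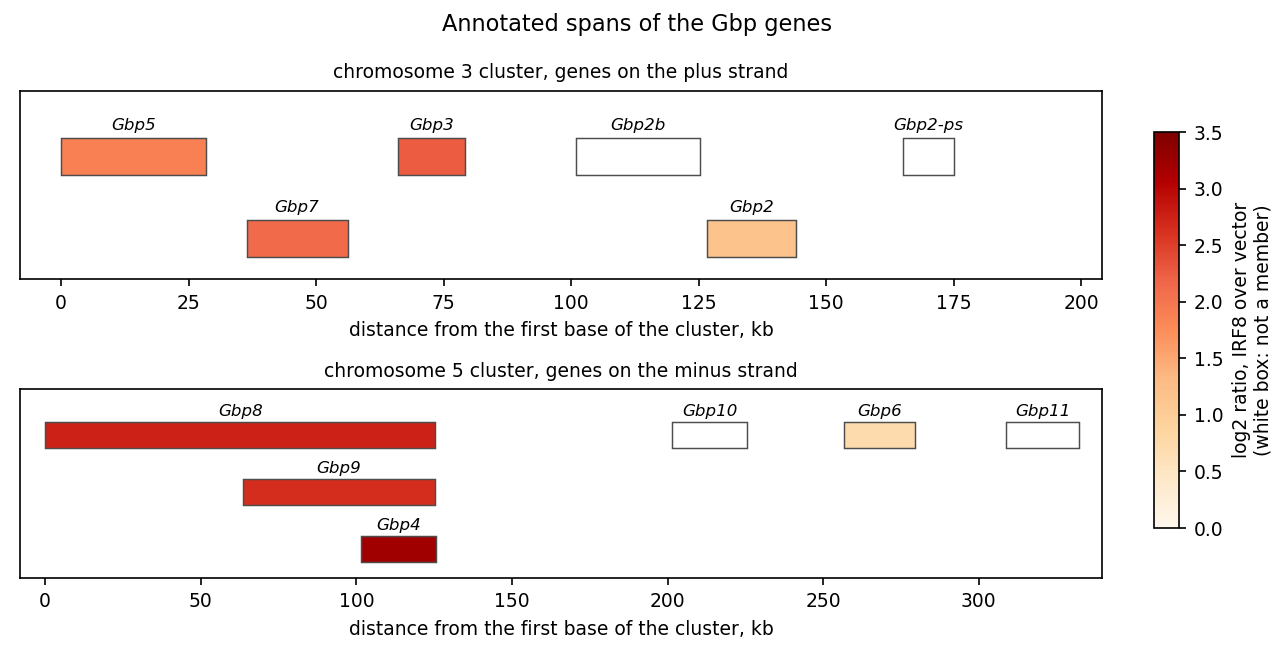
Annotated spans of the 12 Gbp-named genes as boxes, in kb from the first base of each cluster, coloured by the log2 ratio of the IRF8 library over the vector library; white boxes are genes that are not members. On chromosome 5 the spans of Gbp8, Gbp9 and Gbp4 end within 50 bases of each other and overlap, and the darkest colours are there.

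How far single members can be told apart depends on their sequences. On chromosome 5, the deposited spans of Gbp8 (chr5:105014150-105139540) and Gbp9 (chr5:105077630-105139539) begin, on the minus strand, at the start of Gbp4 (chr5:105115767-105139586), whereas RefSeq begins Gbp8 at 105053609 and Gbp9 at 105110357. In GENCODE M21, whose exonic lengths equal the deposited ones for all 12 Gbp-named genes, the exons of these 3 genes share only 60 or 61 bases. Of the 32-base words of the longest transcript, 30.3% occurred in another Gbp gene for Gbp8, 21.9% for Gbp4, 18.0% for Gbp9 and 57.5% for Gbp6, with 50.9% of its words also in Gbp10. Gbp6 also shares 29.0% of its exonic bases with Gm43302 on the same strand, and Gbp7 shares 11.4% with the pseudogene Gm43802; both of these genes had 0 counts in both libraries. On chromosome 3 the share of words was 0.296% for Gbp5, 3.62% for Gbp7, 4.63% for Gbp2 and 6.90% for Gbp3. How reads with several matches were counted is not stated by the labels, so the split of reads among the chromosome 5 genes is uncertain, above all for Gbp6. The sum of Gbp4, Gbp8 and Gbp9, which is not affected by a split among them, had 162 reads in the IRF8 line, against 19 in the vector line, a ratio of 7.08 (4.39 to 12.1).

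All members were weakly expressed. Per kb of the deposited exonic length, Gbp2 had the highest level in both libraries, at 0.779 CPM per kb (0.559 to 1.06) in the IRF8 library and 0.343 CPM per kb (0.192 to 0.566) in the vector library. The median of measured protein-coding genes was 7.82 CPM per kb in the IRF8 library and 7.84 CPM per kb in the vector library. In the IRF8 library the order below Gbp2 was Gbp3 at 0.762, Gbp8 at 0.681, Gbp7 at 0.673, Gbp9 at 0.629, Gbp4 at 0.287, Gbp5 at 0.0649 and Gbp6 at 0.0482 CPM per kb. The intervals of the first 5 overlapped one another, as did those of Gbp5 and Gbp6, while Gbp4 (0.209 to 0.384) lay apart from both sets. Per kb of the longest transcript, however, Gbp4 had 0.474 CPM per kb (0.346 to 0.634) in the IRF8 library, which met the intervals of Gbp2, Gbp7, Gbp8 and Gbp9. With that length Gbp3, at 0.927 CPM per kb (0.692 to 1.22), came before Gbp2 in the IRF8 library, with intervals that overlap, while Gbp2 stayed first in the vector library. In the vector library the order was Gbp2, Gbp3, Gbp7, Gbp8, Gbp9, Gbp4, Gbp6 and Gbp5, and each level's interval met that of its neighbour in the order. Gbp4 had 0.0307 CPM per kb there and Gbp5 0.0174.

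A list of 24 genes around interferon-gamma signalling also held receptor genes of type I interferon and some interferon target genes. Of the 24 genes 22 were measured, and 0 were called higher or lower, beside 4.27% higher and 3.64% lower over all measured genes. The median log2 ratio of the list was 0.07, and at a 1.5-fold threshold 3 of its genes, Jak2 among them, were called higher. The receptor chains Ifngr1 and Ifngr2 had ratios of 0.828 and 0.740. Jak2 had a ratio of 1.59 (1.51 to 1.68), Jak1 one of 1.19, Irf1 one of 1.31 (1.18 to 1.46) and the inhibitor Socs1 one of 1.25 (0.943 to 1.67). Ifng, the gene of the cytokine, had 0 counts in both libraries.

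The immunity-related GTPases, the other interferon-gamma-inducible GTPase family of mouse cells, were also called higher in part. Of 16 genes 8 were measured, 3 of these were called higher and 0 lower, and the median log2 ratio was 0.89. Over all measured genes 4.27% were called higher and 3.64% lower. Igtp had 47 reads in the IRF8 line, against 9 in the vector line, a ratio of 4.34 (2.10 to 10.1). Like the Gbp genes it was below 1 CPM in the vector library, so it passed the filter through the IRF8 library alone. The other 2 were Ifi47 (3.08) and Irgm1 (2.39), while Irgm2 (1.63) and Iigp1 (1.85) were not past 2-fold. With scaling by total counts 5 genes of this list were called higher, Iigp1 among them. Tgtp2, below the filter, had 30 reads in the IRF8 line, against 7 in the vector line. Irgc1, also below it, had 0 reads in the IRF8 line, against 8 in the vector line. Without a filter Tgtp2 was called higher and Irgc1 lower. Among other dynamin superfamily GTPases, 1 of 9 measured genes was called higher, Dnm1 (2.11, 1.65 to 2.71), 0 were lower, and the median was 0.03. Dnm1 lost its call with the expression trend removed. The antiviral GTPase gene Mx1, below the filter, went the other way. It had 2 reads in the IRF8 line, against 31 in the vector line (ratio 0.0536, 0.00621 to 0.211). Mx2 had 1 read in the IRF8 line, against 8 in the vector line. Gvin1 had 21 reads in the IRF8 line, against 6 in the vector line, and Dnm3 had 10, against 1. Without a filter Mx1 and Mx2 were called lower, and Gvin1 and Dnm3 higher. The shares over all genes with any count were 3.73% higher and 3.50% lower.

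Genes of the machinery that GBP proteins work with were mostly below the 2-fold threshold. The shares over all measured genes, to be set beside each list, were 4.27% higher and 3.64% lower. Of 9 measured inflammasome and pyroptosis genes, 2 were called higher and 0 lower, at a median log2 ratio of -0.05. They were Casp1, an inflammatory caspase (2.54, 1.93 to 3.37), and the cytokine gene Il18 (2.17, 1.24 to 3.97). Il18 was not called with the stricter interval, at 5 CPM or with the expression trend removed, which left 1 gene. Casp4, the caspase that senses bacterial lipopolysaccharide, had a ratio of 0.895 and Gsdmd, the pore-forming gasdermin, one of 0.635. The 8 genes of protein prenylation with the kinase gene Pim1 were all measured, and 0 were called, at a median of 0.00. Of 14 measured genes of ATG8 conjugation and related ubiquitin factors, Trim21, an antibody receptor and ubiquitin ligase, was called higher (2.58, 1.76 to 3.87) and the autophagy receptor gene Sqstm1 lower, with 20054 reads in the IRF8 line, against 40851 in the vector line. The median of this list was -0.43, against 0.01 over all measured genes.

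**Figure D5:**
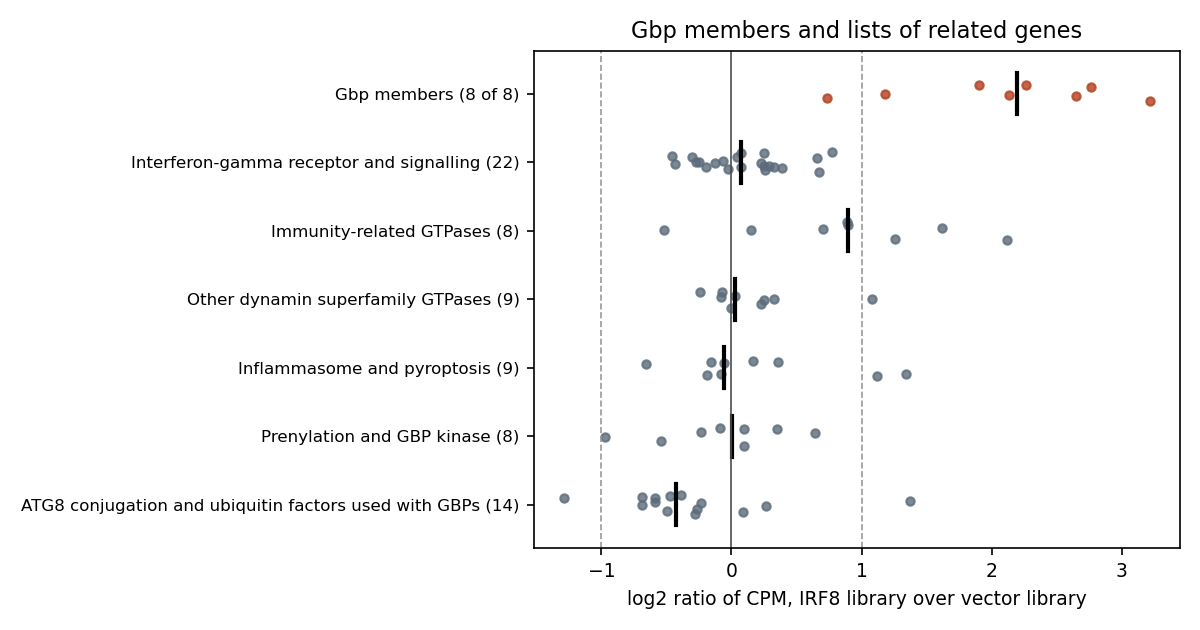
Log2 ratio of the IRF8 library over the vector library for each of the 8 Gbp members (top row) and for each measured gene of 6 lists of related genes; black bars are medians, numbers in brackets are genes, and dashed lines mark 2-fold. The members have a median of 2.20, the immunity-related GTPases 0.89 and the ATG8 conjugation list -0.43.

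Other genes with the same motifs were described alongside. Among 325 measured genes other than the members with an ISRE-like match in a RefSeq window, 19 were called higher (5.85%) and 14 lower (4.31%), at a median log2 ratio of 0.01. Of all 9062 measured genes with a window, 2.97% were called higher. Their share called lower was not counted, so the lower shares here have no such background. Over all measured genes, with or without a window, 3.64% were called lower. For the GAS motif 18 of 748 measured genes other than the members were higher (2.41%) and 29 lower (3.88%). For the ETS-IRF motif 12 of 247 were higher (4.86%) and 11 lower (4.45%).

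Markers of other cell types that express GBPs were also counted. Of these, 3 of 9 leukocyte markers and 1 of 5 endothelial markers were measured, and the others could not be called. None was called higher in the IRF8 library, beside 4.27% higher and 3.64% lower over all measured genes. With so few measured markers, 0 higher is not set apart from that share. The 9 leukocyte markers summed to 19.5 CPM in the IRF8 library and 23.3 CPM in the vector library, mostly from Csf1r, Cd68 and Lyz2. Per kb these 3 genes lay above every Gbp member, with Cd68 at 6.09 CPM per kb in the IRF8 library and 8.89 CPM per kb in the vector library, and Csf1r at 1.82 CPM per kb in the IRF8 library and 1.90 CPM per kb in the vector library. Ptprc (CD45) had 5 reads in the IRF8 line, against 7 in the vector line, and Adgre1, Cd3e and Nkg7 had 0 in both. The 5 endothelial markers summed to 1.58 CPM in the IRF8 library and 3.63 CPM in the vector library, mostly from Vwf. Vwf was called lower, with 23 reads in the IRF8 line, against 50 in the vector line (ratio 0.382, 0.22 to 0.64). Tek had 0 counts in both.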

How the data were processed

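Read counts per gene were available for 1 library of each line. The authors deposited raw whole-number counts, made on build mm10 with HISAT2 2.0.5 and then featureCounts 1.5.0-p3, per the submitters' processing notes. Strand use, multiply mapped reads and the annotation version are not described there. The table also lists an exonic length for each gene, as the authors deposited it, which was used for levels per kb.

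Counts were scaled with TMM in edgeR 4.0.16 (R 4.3.3), with factors of 1.04 for the IRF8 library and 0.958 for the vector library. With 1 library per group, edgeR's quasi-likelihood test could not be run. Instead, a ratio of at least 2 with an exact 95% interval that excluded 1 was called. This rule was tried on simulated Poisson counts, which hold counting error only. How it does with further variation between lines was not tested. Intervals treat reads as independent molecules, which PCR copies are not. Python 3.11.15, scipy 1.17.1, pandas 2.3.3, statsmodels 0.14.6 and matplotlib 3.10.9 were used.

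The members and gene lists were chosen with earlier results of these data known. The genes named were the members, the other Gbp-named genes, the 3 nearest protein-coding genes on each side of each cluster, up to 4 called members of each list, Ifngr1, Ifngr2, Jak1, Jak2, Irf1, Irf8 and Socs1. Markers and other list genes (Ifng, Irgm2, Iigp1, Tgtp2, Irgc1, Mx1, Mx2, Gvin1, Dnm3, Casp4, Gsdmd) were named after their values were seen. Some genes of the lists are not reported singly here. Exons and 32-base words came from GENCODE M21 (both strands searched), promoters from RefSeq. The alternatives were other scalings (total counts, DESeq2 1.42.0 size factors, upper quartile), filters, fold thresholds, a stricter interval and removal of the expression trend.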

Additional observations from a re-analysis of the deposited data

How the results depend on the processing

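The 6 called members stayed higher under the other scalings and with the expression trend removed. They also did without a filter and at 1.5-fold, but these settings only loosen the rule and cannot remove a call. Gbp2 lost its call at 4-fold and with a stricter interval, where 5 members were called. At a mean of at least 5 CPM no member was measured, so that setting gives no count of members. Filters, fold thresholds and the stricter interval cannot change a ratio, so only the other scalings and removal of the trend bear on it. Over these the ratio ranged from 2.01 to 2.47 for Gbp2 and from 8.32 to 10.2 for Gbp4. None of them reversed a member or moved its ratio or a cluster's ratio outside its main 95% interval. The genes called higher and lower, 532 and 454 in the main setting, numbered 852 and 800 without a filter, 221 and 266 at 5 CPM, 1302 and 1175 at 1.5-fold and 69 and 91 at 4-fold. They numbered 320 and 225 among genes with 2 to 15 vector counts, a setting chosen after seeing the data, as was the length of the longest transcript. Of the called genes 54.0% were higher, 66.1% with scaling by total counts (which moved the median log2 ratio of all genes to 0.13) and 41.6% with the trend removed. Genes of the lists that were called numbered 8 in the main setting, 15 without a filter, 5 at 5 CPM, 21 at 1.5-fold and 1 at 4-fold. At 5 CPM Igtp, Il18 and Trim21 were below the filter. No paired analysis was possible because each group has 1 library. With 2 to 15 counts per member in the vector library, depth limits each single ratio.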
